A study of Mus musculus with 8 samples.

Results

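Cytochrome P450 enzymes, encoded by the Cyp genes, are heme proteins that use molecular oxygen to hydroxylate lipids, hormones and foreign compounds, with electrons delivered by P450 reductase in the endoplasmic reticulum and by ferredoxin in mitochondria. Liver is their main site in drug oxidation and bile acid synthesis, while other members make or clear steroid hormones, vitamin D and retinoic acid elsewhere. Many mouse members sit in clusters of duplicated neighbours whose sequences are very similar. The members described here are all protein-coding genes of the mm9 annotation (GENCODE M1) whose symbol is Cyp followed by a digit. They numbered 98 of 22367 protein-coding genes, in 17 families on 15 chromosomes, and 2 of them (Cyp2d37-ps and Cyp2j7-ps) carry a pseudogene suffix in their symbol although the annotation lists them as protein-coding.

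5-hydroxymethylcytosine (5hmC), the oxidised form of 5-methylcytosine, was mapped by GLIB-Seq, a pull-down of DNA fragments whose 5hmC has been glucosylated and tagged with biotin. There was 1 library each from untransfected ESCs (the E14 line), MEFs, brain, liver, and E14 ESCs transfected with a hairpin against GFP (shGFP, the control) or against the Polycomb subunit Suz12 (shSuz12). MEFs, brain and liver came from C57BL/6 mice, the tissues at 8 weeks of age and the MEFs at embryonic day 11 by their label, although the methods name a later embryonic day. RNA-Seq samples of the shGFP and shSuz12 cells were not analysed here. With 1 library per condition no difference had a replicate check and none was tested. The lists held 171865 peaks in ESCs, 217025 in MEFs, 157511 in brain, 130408 in liver, 132996 in shGFP and 138705 in shSuz12. They give no read counts, so depth is unknown, and their lowest scores were 80, 30, 30, 80, 50 and 30.3 in that order, so that the MEF, brain and shSuz12 lists reach down to weaker peaks than the ESC and liver lists. Brain and liver are mixtures of cells, in which more 5hmC per cell and more cells that carry it cannot be told apart.

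Coverage, the percentage of the merged gene spans that lay under peaks, was lower on the Cyp genes than on all protein-coding genes in each of the 6 libraries, and liver came closest. Peaks covered 7.75% of the Cyp spans in liver, 4.97% in ESCs, 2.99% in brain, 2.98% in MEFs, 3.54% in shGFP and 2.45% in shSuz12. Over all protein-coding spans the same percentage was 12.8% in liver, 11.6% in ESCs, 13.9% in brain, 11.8% in MEFs, 7.41% in shGFP and 5.23% in shSuz12. The Cyp genes were therefore at 0.606 times the general level in liver, 0.429 times in ESCs, 0.252 times in MEFs, 0.215 times in brain, 0.478 times in shGFP and 0.468 times in shSuz12. Relative to all genes, liver stood 1.41 times above ESCs, 2.40 times above MEFs and 2.82 times above brain. In each library taken by itself the median percentage of a member's span under peaks was 0, whereas the median protein-coding gene had 8.77% of its span under peaks in ESCs and 4.44% in liver.

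Cyp spans also hold more sequence that occurs more than a single time in the genome, and the authors reported unique hits; whether this lowers Cyp coverage was not tested. Of the 32-mers in Cyp spans, 74.3% were unique in mm9, against 89.5% of those sampled over all protein-coding spans. The 40 members with at least 90% of sampled 32-mers unique were set against the 15488 protein-coding genes with the same property, a comparison chosen after the data had been seen. Their coverage was 14.3% against 15.4% in ESCs, 16.3% against 16.8% in liver, 10.1% against 9.82% in shGFP and 7.32% against 6.88% in shSuz12. In MEFs it was 8.69% against 15.7%, and in brain 7.72% against 18.7%. Among these genes the Cyp level was thus 0.930, 0.969, 1.02 and 1.06 times the general one in ESCs, liver, shGFP and shSuz12, but 0.555 times in MEFs and 0.412 times in brain. Liver then stood 1.04 times above ESCs, 1.75 times above MEFs and 2.35 times above brain, and below shGFP and shSuz12, so the lead over ESCs was nearly gone. In the class of 70 to 90%, 30 members had coverage of 8.26% in liver, above the 5.33% of all such genes, but 2.05% against 4.35% in ESCs, 1.30% against 4.60% in MEFs and 2.17% against 4.72% in brain. At the other end, the 28 members with under 70% unique 32-mers had coverage of 0.522% in liver and 0.294% in ESCs, and all genes of that class 1.21% and 1.13%. Across the 98 members, Spearman's rho between uniqueness and the percentage covered was 0.464 in liver, 0.488 in brain, 0.495 in MEFs and 0.647 in ESCs. The members share chromosomes and sequence, so this is a description only.

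**Figure D1:**
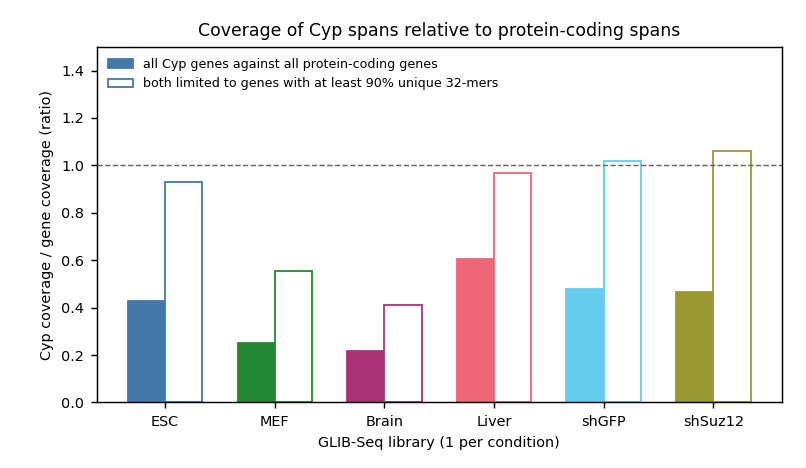
Ratio of the coverage of Cyp spans to that of protein-coding spans (vertical axis, no unit) in each GLIB-Seq library (1 per condition). Filled bars take all 98 Cyp genes and all protein-coding genes and run from 0.215 in brain to 0.606 in liver; open bars take only genes with at least 90% of sampled 32-mers unique, and lie between 0.930 and 1.06 except in MEFs (0.555) and brain (0.412).

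CpG content, which sets how many sites can carry the mark, was also low. The median Cyp span had 8.07 CpG per kb and the median protein-coding span 12.1. Among genes with under 8.24 CpG per kb, of which 50 were Cyp genes, Cyp coverage was 2.48% in liver, 0.633% in ESCs, 0.301% in MEFs and 0.538% in brain, against 3.08%, 1.4%, 3.64% and 3.64% over all such genes. Between 8.24 and 12.1 CpG per kb, with 28 Cyp genes, coverage was 13.7% against 13.8% in liver and 7.40% against 9.84% in ESCs. In this class MEFs had 5.53% against 14% and brain 3.95% against 15.9%. Between 12.1 and 17.4 CpG per kb, with 9 Cyp genes, coverage was 37.6% against 26% in liver, 29.9% against 27.7% in ESCs, 16.6% against 22.4% in MEFs and 20.1% against 27.6% in brain. Above 17.4, with 11 Cyp genes, it was 30.3% against 35.2% in liver, 41.2% against 44.6% in ESCs, 20% against 23.4% in MEFs and 22.6% against 31.9% in brain. MEFs and brain thus lay below genes of similar CpG content in all 4 classes, and liver below, near, above and below them from the lowest class to the highest. In the same order ESCs lay below, below, above and below them. Within the Cyp spans, DNA under liver peaks had 15.3 CpG per kb and the rest 6.67, and DNA under ESC peaks had 21.4 and the rest 6.60. Peaks on all protein-coding genes showed a smaller contrast, of 14.8 to 9.17 CpG per kb in liver and 18.8 to 8.72 in ESCs.

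A peak touched the span of 47 Cyp genes in liver (48.0%, exact Clopper-Pearson 95% interval 37.8 to 58.3%; background over all protein-coding genes 57.9%) and of 46 in ESCs (46.9%, 36.8 to 57.3%; background 67.8%). These intervals cover counting error only. In MEFs 28 members had a span peak (28.6%, background 61.0%) and in brain 25 (25.5%, background 60.7%), both far below the background. The knockdown pair had 47 in shGFP (48.0%, background 63.4%) and 41 in shSuz12 (41.8%, background 63%). No peak lay in the span in any of the 6 libraries for 29 members (29.6%, interval 20.8 to 39.7%), where 21.4% of all genes were bare. Of these 29, 26 were in clusters. Their median uniqueness was 63.9%, against 90.8% for the 69 members with a peak. Cyp4a14, a fatty acid hydroxylase with 98.5% unique 32-mers, was the 1 bare member above 90% when all positions were counted, and 3 bare members were at 90% or above by sampled positions.

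Promoters, taken as the TSS ± 1 kb, carried a peak in 23 members in liver (23.5%, interval 15.5 to 33.1%; background 29.4%), 23 in ESCs (23.5%, background 31.9%), 11 in MEFs (11.2%, background 30.1%) and 7 in brain (7.14%, background 20%). The intervals of MEFs (5.74 to 19.2%) and brain (2.92 to 14.2%) lie below their backgrounds. In shGFP 18 promoters had a peak (18.4%, background 27.1%) and in shSuz12 23 (23.5%, background 21.4%), close to the share of all genes. Among the 4 cell types, 11 promoters had a peak in ESCs alone (11.2%, background 7.62%), 10 in liver alone (10.2%, background 6.46%), 2 in MEFs alone (2.04%, background 5.83%) and 1 in brain alone (1.02%, background 1.93%). Each of these 4 backgrounds falls inside the exact interval of its count (5.74 to 19.2% in ESCs, 5.00 to 18% in liver, 0.248 to 7.18% in MEFs and 0.0258 to 5.55% in brain), so counts of this size do not set the Cyp promoters apart from all genes in either direction.

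Liver led the cell types in more Cyp spans than any other. The percentage of the span covered was highest in liver for 38 members (38.8%, background 28.8%), in ESCs for 22 (22.4%, background 23.7%), in MEFs for 3 (3.06%, background 11.2%) and in brain for 2 (2.04%, background 12.8%). A stricter call asked for at least 2 times the highest other cell type and at least 500 bp under peaks. It took 25 members as liver-high (25.5%, interval 17.2 to 35.3%), against 8.46% of all genes. The same call took 13 members in ESCs (13.3%, background 9.06%), 0 in MEFs (background 3.67%) and 1 in brain (1.02%, background 2.43%), which was Cyp2j13. Of the 25 liver-high members 20 lay in clusters, and together their spans were covered to 15.5% in liver, 2.96% in ESCs, 1.53% in MEFs and 1.48% in brain. The call itself puts liver first in each of these members, so the pooled values describe size only. The excess of liver-high members over all genes stood in every class of uniqueness: 9 of the 40 most unique members were liver-high (22.5%, against 8.59% of such genes), as were 12 of 30 in the class of 70 to 90% (40.0% against 12.3%) and 4 of 28 in the lowest (14.3% against 2.26%). When each list was limited to the 50% of its peaks with the highest scores, a setting added after the data had been seen, 14 members were liver-high (14.3%, interval 8.04 to 22.8%, against 9.68% of all genes), and the interval holds the background. With 80 as the lowest score kept in all lists, also chosen after the data had been seen, 27 members were (27.6%, interval 19 to 37.5%), against 16.0% of all genes, and with equal numbers of peaks 27.6% against 12.1%. The liver-high excess was thus smaller under all 3 settings and did not stand apart from all genes under the first.

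Liver peaks on Cyp genes met peaks of the other cell types less often. Those cell types covered Cyp spans at 0.215 to 0.429 times the general level, so there were fewer peaks to meet. The shares below are therefore not independent of the coverage given above. Of 162 liver peaks in Cyp spans, 88 (54.3%) met no peak of ESCs, MEFs or brain, whereas 24.3% of the liver peaks on all protein-coding spans did. For ESC peaks the share was 44 of 137 (32.1% against 21.5%), for MEF peaks 23 of 90 (25.6% against 28.2%) and for brain peaks 13 of 69 (18.8% against 22.0%). The median score of liver peaks was 161 on Cyp spans and 172 on all protein-coding spans. An exon was touched by 52.5% of them and by 62% of the ESC peaks.

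**Figure D2:**
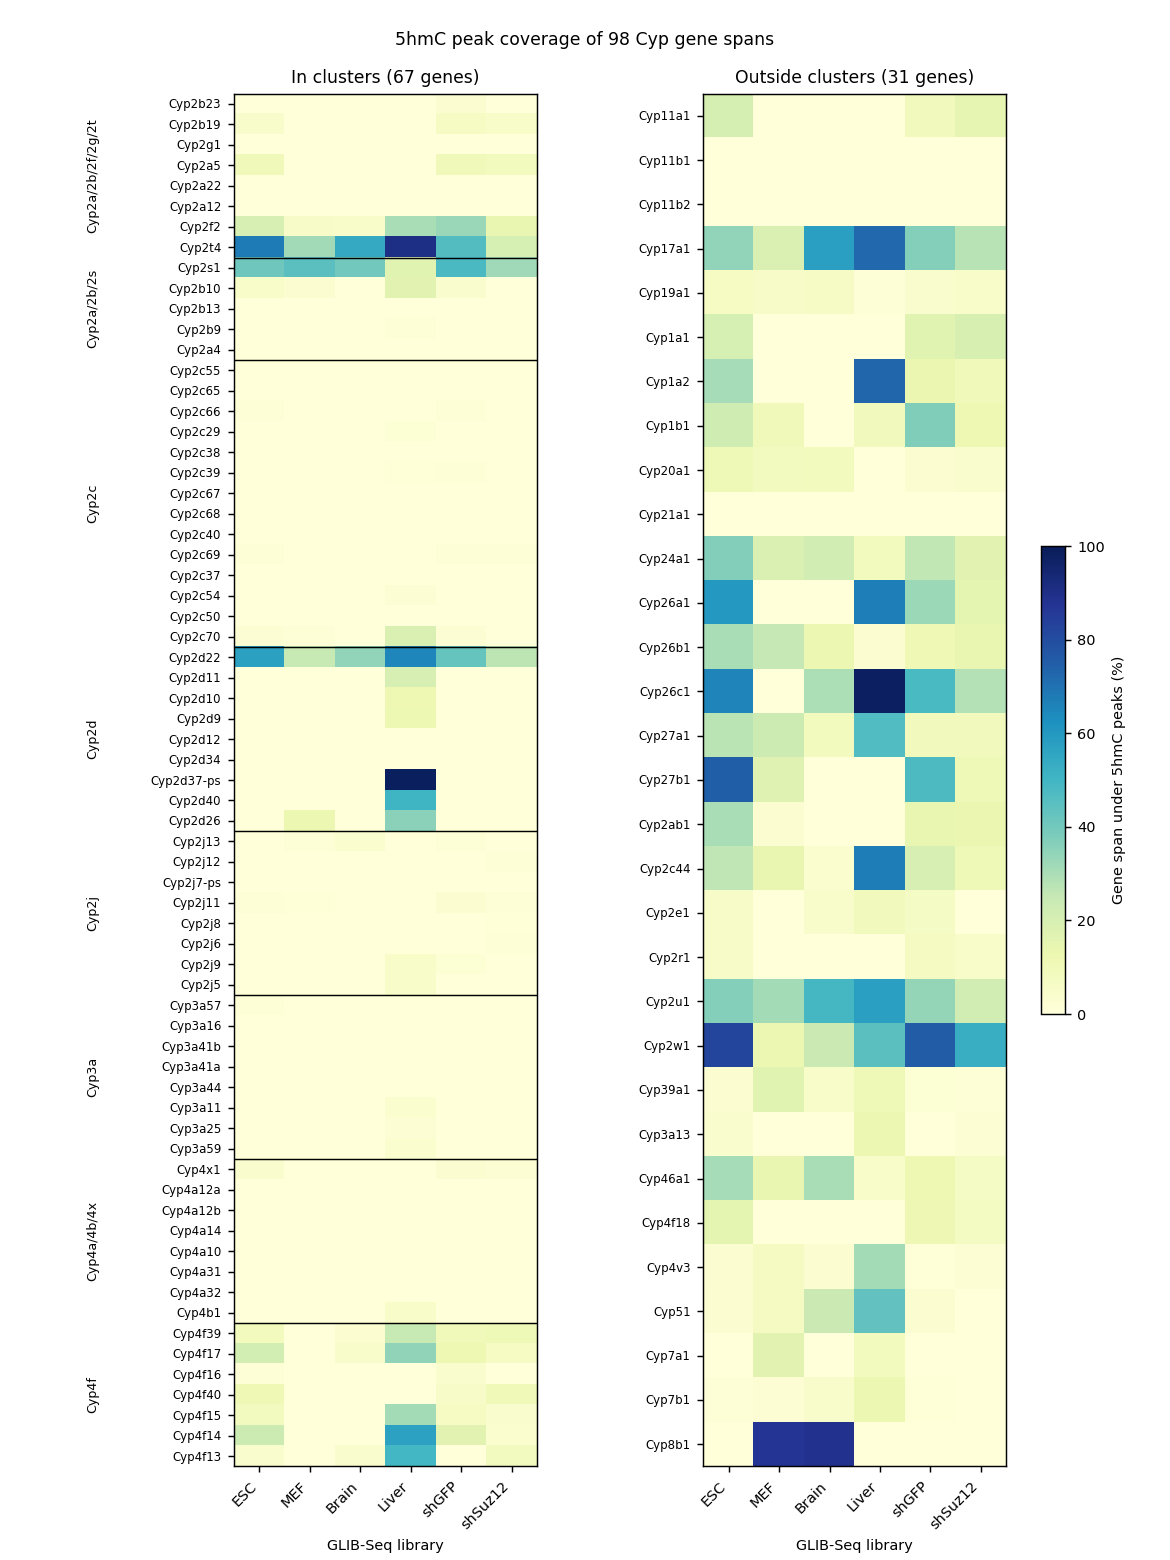
Percentage of each Cyp gene span under 5hmC peaks (colour, 0 to 100%) in the 6 libraries (columns, 1 library each), with the 67 genes in 8 clusters on the left in chromosomal order and the 31 genes outside clusters on the right. Most clustered genes are pale in all columns, and 12 of the 16 in the Cyp2d and Cyp4f clusters have liver coverage, Cyp2d12, Cyp2d34, Cyp4f16 and Cyp4f40 having none.

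By family, liver coverage was above that of ESCs, MEFs and brain in the 3 largest families, Cyp2, Cyp4 and Cyp3. Of all protein-coding genes 8.46% were liver-high and 21.4% bare, against which the counts by family can be read. The 50 Cyp2 genes were covered to 5.06% in liver, 3.25% in ESCs, 1.69% in brain and 1.65% in MEFs, with 13 liver-high and 16 without a span peak. The 17 Cyp4 genes had 13.3% in liver, 5.36% in ESCs, 0.926% in brain and 0.605% in MEFs, with 6 liver-high and 6 bare. The 9 Cyp3 genes had 2.21% in liver and 0.567% in ESCs, with no peak in MEFs or brain, 4 liver-high and 4 bare. The remaining liver-high members were Cyp1a2 and Cyp7b1. Families of 1 to 3 members went both ways. Liver was highest in Cyp1 (26.8%, with 24.4% in ESCs), Cyp7 (12.6%, with 4.24% in brain), Cyp17 (72.4%, with 57.5% in brain), Cyp27 (38.9%, with 35.0% in ESCs) and Cyp51 (43.2%, with 23.8% in brain). ESCs were highest in Cyp11 (10.2%, liver 0), Cyp19 (6.83%, liver 1.45%), Cyp20 (10.7%, liver 0), Cyp24 (36.9%, liver 8.67%), Cyp26 (41.6%, liver 32.4%) and Cyp46 (30.8%, liver 5.30%). Brain was highest in Cyp8 and MEFs in Cyp39, and Cyp21 was bare.

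Clusters were defined as at least 3 members on a chromosome with gaps of at most 250 kb, and 8 clusters held 67 members. Their spans were covered to 4.53% in liver, 2.12% in ESCs, 0.919% in brain and 0.763% in MEFs, with a median uniqueness of 72.5%. The 31 members outside clusters, with a median uniqueness of 94.8%, reached 15.5%, 11.8%, 7.99% and 8.34% in the same order. The clusters themselves differed widely.

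The Cyp2d cluster on chromosome 15, whose human counterpart includes the drug-metabolising CYP2D6, had the highest liver coverage of member spans among the 8 clusters. Its 9 members were covered to 31.4% in liver, 13.1% in ESCs, 7.85% in brain and 6.88% in MEFs, and to 9.71% in shGFP and 6.11% in shSuz12. A span peak was found in 7 of the 9 members in liver, in 2 in MEFs and in 1 in each of the other 4 libraries. Of all protein-coding genes, 57.9% had a span peak in liver, 61.0% in MEFs and 60.7 to 67.8% in the other 4 libraries. Cyp2d22 supplied all the span coverage of the cluster in ESCs and brain, with 57.4% of its span under peaks in ESCs, 34.3% in brain, 24.7% in MEFs and 64.9% in liver. Cyp2d9, Cyp2d10, Cyp2d11, Cyp2d37-ps and Cyp2d40 had span peaks in liver and in none of the other 5 libraries, covering 12.3%, 12%, 19.6%, 98.5% and 50.5% of their spans. Cyp2d26 had 35.4% in liver and 12.5% in MEFs. Over the whole 424 kb region, genes between the members included, liver had 36 peaks, ESCs 12, MEFs 4 and brain 2. Liver peaks covered 9.18% of this region, below the 14.6% of the whole Cyp4f region.

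The Cyp4f cluster on chromosome 17 encodes hydroxylases of fatty acids and leukotrienes, and its 7 members are mostly unique in sequence (median 91.9%). Coverage of their spans was 28.4% in liver, 10.7% in ESCs, 1.99% in brain, 7.41% in shGFP and 6.78% in shSuz12, and MEFs had no peak on any of the 7. Cyp4f13 had 11236 bp in 8 peaks in liver (49.5% of the span) against 928 bp in ESCs (4.09%) and 916 bp in brain (4.03%). Cyp4f14, which acts on leukotriene B4, had 56.9% in liver and 23.3% in ESCs, with no peak in MEFs or brain. Cyp4f15, Cyp4f17 and Cyp4f39 reached 31.2%, 34.6% and 24.8% in liver and 7.86%, 20.9% and 8.93% in ESCs. Cyp4f40 ran the other way, with 11.0% in ESCs and no liver peak, and Cyp4f16 had 175 bp in ESCs and none in liver. Liver was therefore highest in 5 of 7 members and ESCs in 2, against 28.8% and 23.7% of all genes.

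**Figure D3:**
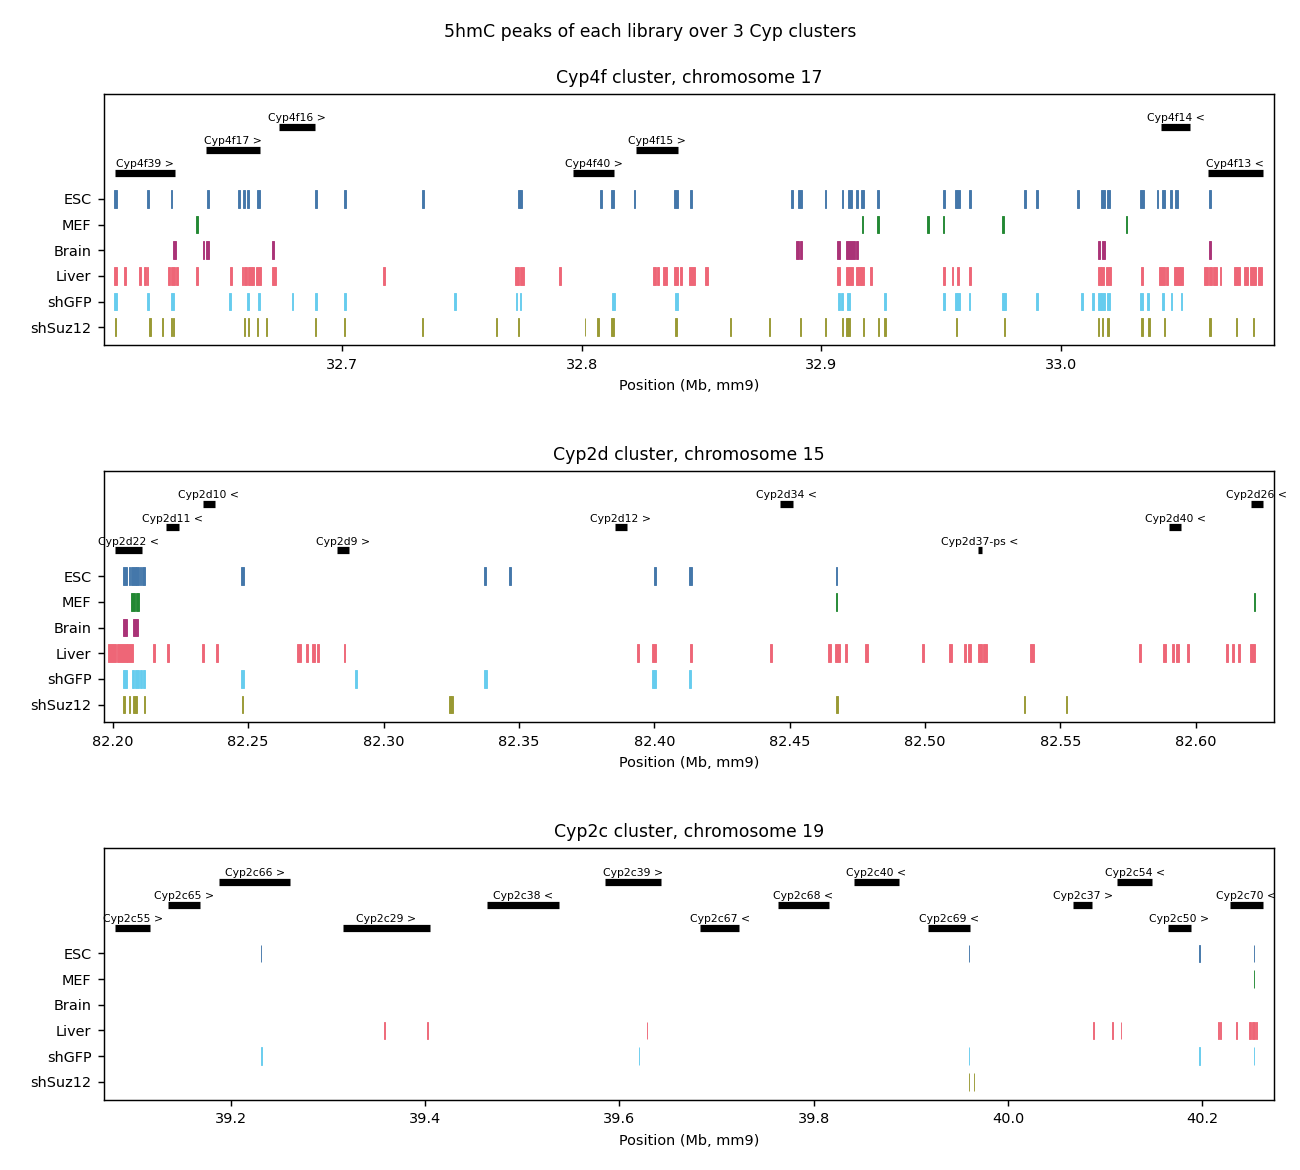
Maps of the Cyp4f (chromosome 17), Cyp2d (chromosome 15) and Cyp2c (chromosome 19) clusters in mm9, with position in Mb on the horizontal axis, black bars for Cyp gene spans (> plus strand, < minus strand) and coloured boxes for the peaks of each of the 6 libraries. Liver has 53, 36 and 13 peaks in the 3 regions, and ESCs have 42, 12 and 4.

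In the Cyp2c cluster (chromosome 19, 1180 kb, 14 members with a median uniqueness of 57.8%), coverage was 1.38% in liver, 0.323% in ESCs, 0.0754% in MEFs and 0 in brain. Cyp2c70 held most of the liver signal, with 6398 bp in 5 peaks (18.8% of the span) against 771 bp in ESCs and 497 bp in MEFs. Cyp2c29, an abundant hepatic drug-metabolising enzyme, had 1549 bp in 2 liver peaks within its span of 89749 bp and no span peak in any other library. Cyp2c55 had no span peak, but a liver peak at −1078 to −68 bp from the TSS covered 933 bp of its promoter.

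The Cyp3a cluster on chromosome 5, which includes the main steroid and drug hydroxylases of mouse liver, was nearly bare. Its 8 members were covered to 1.02% in liver and 0.179% in ESCs, with no span peak in MEFs, brain, shGFP or shSuz12. Cyp3a11, Cyp3a25 and Cyp3a59 had 1 liver peak each, of 836, 690 and 1066 bp. Cyp3a41a and Cyp3a41b, a near-identical pair, had 11.3% and 10% unique 32-mers and no peak in any library, so that these lists can say little about them. In the Cyp4a/4b/4x cluster on chromosome 4, Cyp4a10, Cyp4a12a, Cyp4a12b, Cyp4a14, Cyp4a31 and Cyp4a32 had no peak in any library, Cyp4b1 had 1131 bp in liver alone, and Cyp4x1 had 999 bp in ESCs, 719 bp in shGFP, 645 bp in shSuz12 and 0 in liver, MEFs and brain. Coverage of the 8 spans was 0.652% in liver, 0.576% in ESCs, 0.414% in shGFP, 0.372% in shSuz12 and 0 in MEFs and brain. Their median uniqueness was 71.0%. The Cyp2j cluster on the same chromosome was covered to 0.8% in liver, 0.470% in brain, 0.268% in MEFs and 0.180% in ESCs. Coverage was 0.701% in shGFP and 0.599% in shSuz12. The shGFP peaks on its member spans scored 57.4, 68.9, 89.3 and 68.0, and the shSuz12 peaks 36.1, 49.3, 76.2 and 39.5. Of these scores only 89.3 reaches 80, below which neither liver nor untransfected ESCs have listed peaks. The values of the transfected cells are therefore not like for like with those 2 libraries. Of the cluster's members, Cyp2j5 (1684 bp) and Cyp2j9 (1087 bp), epoxygenases of arachidonic acid, had span peaks in liver, and Cyp2j9 also had 372 bp in shGFP.

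In both Cyp2 clusters on chromosome 7 liver lay close to ESCs. The one from Cyp2b23 to Cyp2t4 was covered to 9.46% in liver, 8.25% in ESCs, 3.72% in brain, 2.55% in MEFs, 10.1% in shGFP and 4.88% in shSuz12, and the one from Cyp2s1 to Cyp2a4 to 6.09% in liver, 5.92% in ESCs, 5.86% in MEFs and 4.67% in brain. In the former, Cyp2t4 had peaks in all 6 libraries and 90.3% of its span covered in liver, 67.9% in ESCs and 54.0% in brain. In the latter, Cyp2s1 was lower in liver (16.5%) than in MEFs (44.7%), ESCs (40.7%) and brain (39.9%). Cyp2b10, the phenobarbital-inducible member, had 4679 bp in 6 peaks in liver against 1424 bp in ESCs, 770 bp in MEFs and 0 in brain. Cyp2a5, which oxidises coumarin and nicotine, had 787 bp in ESCs and 0 in liver, with 36.5% unique 32-mers.

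By role, the enzymes of bile acid and cholesterol metabolism were split among cell types. Cyp7a1, the rate-limiting enzyme of the classical bile acid pathway, had 1638 bp under peaks in MEFs, 881 bp in liver and none in ESCs, brain, shGFP or shSuz12. Cyp8b1, the sterol hydroxylase that sets the cholic acid share, was the member with the lowest liver value relative to the others: peaks covered 88.4% of its 1950 bp span in brain and 87.2% in MEFs, and 0 in liver and in the 3 ESC libraries. The brain peaks on Cyp8b1 scored 49.9 at most, below the lowest score in the liver and ESC lists, and 1 of the MEF peaks scored 213. Liver had a peak with a score of 93.0 at −1298 to −605 bp from its TSS. Cyp8b1 was therefore bare in liver within the gene and not in front of it.

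Cyp7b1 and Cyp27a1, of the alternative bile acid pathway, were both highest in liver. Cyp7b1 had 21971 bp in 19 peaks in liver, 7690 bp in brain, 3800 bp in MEFs, 1554 bp in ESCs, 902 bp in shGFP and 0 in shSuz12, within a span of 171389 bp. Cyp27a1 had 46.5% of its span covered in liver, 27.2% in ESCs, 23.2% in MEFs and 8.72% in brain. Cyp51, the demethylase of cholesterol synthesis, had 43.2% in liver, 23.8% in brain, 7.43% in MEFs and 2.83% in ESCs. Cyp39a1 was highest in MEFs, with 16.5% against 10.8% in liver. Cyp46a1, the brain cholesterol hydroxylase, had 30.8% in ESCs, 30.3% in brain, 13.9% in MEFs and 5.30% in liver. Liver was highest in 3 of these 7 genes, MEFs in 2, and ESCs and brain in 1 each, against 28.8%, 11.2%, 23.7% and 12.8% of all genes.

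Among 10 drug and xenobiotic enzymes liver was highest in 7 and ESCs in 3, against 28.8% and 23.7% of all genes. Cyp1a2, a hepatic oxidase of caffeine and aromatic amines, had 73.0% of its span under 4 liver peaks and 30.8% under 2 ESC peaks, with 12.9% in shGFP, 9.82% in shSuz12 and 0 in MEFs and brain. Its neighbour Cyp1a1, induced through the aryl hydrocarbon receptor, showed the reverse, with 20% in ESCs, 16.5% in shGFP, 19.2% in shSuz12 and 0 in liver, MEFs and brain. Cyp1b1 had 22.5% in ESCs, 37.4% in shGFP, 12% in shSuz12, 10.1% in MEFs and 9.30% in liver. Cyp2e1, the ethanol oxidase, had 9.19% in liver, 5.81% in ESCs and 4.65% in brain, and the brain peak, with a score of 34.5, gave the promoter peak found in brain alone. Cyp3a13 had 12.8% in liver and 4.02% in ESCs. Cyp2c29 and Cyp3a11 had liver peaks alone, over 1.73% and 3.27% of their spans. Among these enzymes liver coverage thus ran from 0 to 73.0% of the span. Cyp2c44 (67.2% in liver, 26.4% in ESCs, 13.7% in MEFs and 3.13% in brain), an epoxygenase, and Cyp4v3 (31.1%, 2.42%, 7.81% and 2.37%), a fatty acid hydroxylase, stood among the 8 members with the largest excess in liver.

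Of 5 enzymes of fatty acid oxidation, summed coverage was 17.0% in liver, 3.46% in ESCs, 2.14% in MEFs and 0.648% in brain, with Cyp4f14, Cyp4v3 and Cyp2j5 highest in liver (3 of 5, against 28.8% of all genes) and Cyp4a10 and Cyp4a14 bare (2 of 5, against 21.4%).

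The 6 steroid hormone enzymes were highest in ESCs in 2 cases and in liver in 1, and 3 were bare (backgrounds 23.7% for ESCs, 28.8% for liver and 21.4% for bare spans). Cyp11a1, which cleaves the cholesterol side chain, had 20.7% in ESCs, 14.7% in shSuz12, 9.18% in shGFP and 0 in liver, MEFs and brain. Cyp11b1, Cyp11b2 and Cyp21a1, of the adrenal cortex, had no span peak in any library, and aromatase (Cyp19a1) had between 1.45% (liver) and 6.83% (ESCs). Cyp17a1, needed for androgens, was the one with high values throughout, at 72.4% in liver, 57.5% in brain, 34.1% in ESCs, 18.8% in MEFs, 36.4% in shGFP and 27.6% in shSuz12.

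Of the 3 enzymes that clear retinoic acid, liver was highest in 2 and ESCs in 1 (28.8% and 23.7% of all genes). Cyp26c1 had 98% of its span under peaks in liver, 65.3% in ESCs, 29.5% in brain and 0 in MEFs, and one of its liver peaks had a score of 2311, the highest of any peak on a Cyp span. Cyp26a1, beside it on chromosome 19, had 67.1% in liver, 59.9% in ESCs and 0 in MEFs and brain. Cyp26b1 differed, with 2.90% in liver, 12.8% in brain, 25.2% in MEFs and 30.1% in ESCs. The vitamin D enzymes were highest in ESCs in 3 of 3 cases, where 23.7% of all genes were. The activating Cyp27b1 had 74.7% in ESCs, 47.3% in shGFP, 16.8% in MEFs, 10.7% in shSuz12 and 0 in liver and brain, although a liver peak covered 811 bp of its promoter. The inactivating Cyp24a1 had 36.9% in ESCs, 21.2% in brain, 18.6% in MEFs and 8.67% in liver, and Cyp2r1 had 5.58% in ESCs and 0 in MEFs, brain and liver. The promoter of Cyp2r1 had a peak in all 6 libraries, over 1481 bp in ESCs, 842 bp in brain, 312 bp in MEFs and 210 bp in liver. Cyp2w1 (82.2% in ESCs, 44.9% in liver) and Cyp2ab1 (30.1% in ESCs, 0 in liver) were also among the 8 members lowest in liver relative to the highest other cell type.

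The 5 members with the most promoter sequence under liver peaks were Cyp26c1 (1842 of 2001 bp), Cyp2d37-ps (1659 bp), Cyp2j9 (1638 bp), Cyp2b10 (1491 bp) and Cyp2t4 (1342 bp). In ESCs the same promoters had 2001, 0, 0, 1044 and 998 bp, in MEFs 0, 0, 575, 0 and 989 bp, and in brain 328, 0, 0, 0 and 0 bp. The promoter of Cyp2d37-ps was thus covered in liver and in none of the other 5 libraries. Cyp promoters are poor in CpG, with a median of 3 in the 300 bp from 250 bp before to 50 bp after the TSS, against 11 over all protein-coding genes. TATAAA on either strand was found in 35 Cyp windows (35.7%) and in 13.4% of all such windows, and GCGTG, the core letters bound by the aryl hydrocarbon receptor, on either strand in 20 (20.4%) and in 37.0%. These are letter matches and show no binding. The 200 bp just upstream of the TSS are given for the 4 of these 5 promoters where liver peaks covered all 200 bp, to show the CpGs (capitals) next to the TSS in DNA called as 5hmC-positive. The sequences are from mm9, read 5′ to 3′ on the strand of the gene.
Cyp26c1 (chr19:37759871-37760070, plus strand): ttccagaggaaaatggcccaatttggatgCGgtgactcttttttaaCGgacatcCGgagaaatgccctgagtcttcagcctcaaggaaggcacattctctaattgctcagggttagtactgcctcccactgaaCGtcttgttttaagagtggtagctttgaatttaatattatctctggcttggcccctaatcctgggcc
Cyp2d37-ps (chr15:82520930-82521129, minus strand): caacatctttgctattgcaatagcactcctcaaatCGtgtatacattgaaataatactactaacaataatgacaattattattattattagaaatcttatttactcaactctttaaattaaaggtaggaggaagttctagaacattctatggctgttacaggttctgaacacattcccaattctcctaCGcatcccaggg
Cyp2b10 (chr7:26682439-26682638, plus strand): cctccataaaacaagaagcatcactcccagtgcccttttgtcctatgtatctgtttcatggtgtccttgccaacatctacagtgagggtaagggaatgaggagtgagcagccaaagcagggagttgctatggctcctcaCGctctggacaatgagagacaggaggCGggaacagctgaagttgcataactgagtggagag
Cyp2t4 (chr7:27938533-27938732, plus strand): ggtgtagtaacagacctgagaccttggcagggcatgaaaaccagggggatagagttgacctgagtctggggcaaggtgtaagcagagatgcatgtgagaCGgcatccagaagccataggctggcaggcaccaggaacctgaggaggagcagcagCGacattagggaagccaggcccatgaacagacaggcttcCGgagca
They hold 4, 2, 2 and 3 CpGs in the order given.

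Of the liver peaks in Cyp spans, 82 met no peak of any other library, 43 of them in clusters. The central 200 bp of such a peak are given for 4 of the 8 clusters, picked after the values were seen, in each case the peak with the highest score whose centre touches no annotated exon. They show intronic or downstream DNA under a liver peak that met no peak of any other library, and CpGs are in capitals. The Cyp2c70 peak lies 11823 to 13771 bp from the TSS (score 355), the Cyp2d22 peak 9500 to 12447 bp (score 562, across the gene's end), the Cyp3a59 peak 28075 to 29140 bp (score 135) and the Cyp4f15 peak 7074 to 8624 bp (score 443).
Cyp2c70 (chr19:40248926-40249125, minus strand): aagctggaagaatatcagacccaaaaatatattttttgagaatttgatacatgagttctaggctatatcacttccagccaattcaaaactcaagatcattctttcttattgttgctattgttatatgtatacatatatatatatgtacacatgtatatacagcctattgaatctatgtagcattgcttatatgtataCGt
Cyp2d22 (chr15:82199616-82199815, minus strand): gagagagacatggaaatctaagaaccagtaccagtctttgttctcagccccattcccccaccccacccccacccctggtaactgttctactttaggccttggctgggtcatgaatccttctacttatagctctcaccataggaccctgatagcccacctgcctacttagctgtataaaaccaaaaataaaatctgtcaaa
Cyp3a59 (chr5:146919341-146919540, plus strand): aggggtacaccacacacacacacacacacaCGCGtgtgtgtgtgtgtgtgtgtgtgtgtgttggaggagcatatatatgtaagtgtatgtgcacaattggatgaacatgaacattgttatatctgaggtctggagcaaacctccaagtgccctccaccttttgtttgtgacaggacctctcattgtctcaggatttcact
Cyp4f15 (chr17:32830321-32830520, plus strand): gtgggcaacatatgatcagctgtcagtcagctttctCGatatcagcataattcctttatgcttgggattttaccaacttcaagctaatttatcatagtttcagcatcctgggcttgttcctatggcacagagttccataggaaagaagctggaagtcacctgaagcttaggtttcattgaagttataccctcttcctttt
They hold 1, 0, 2 and 1 CpGs. The centres chosen in the same way in the other clusters hold 4 (Cyp2f2), 3 (Cyp2b10), 2 (Cyp2j5) and 2 (Cyp4b1).

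Along the genes, mean coverage of Cyp spans in liver rose from 7.28% in the first of 10 equal parts to 20.5% in the last, close to the 21.1% of all genes there. In brain it rose from 3.6% to 8.34% (17.3% over all genes), in ESCs from 9.64% to 14.1% (21.5%) and in MEFs from 3.43% to 6.65% (11.4%). The first part was lower than the last in each of the 6 libraries. Upstream of the TSS, liver had 11.1% between 2 and 1 kb and 10.8% within 1 kb, and ESCs 6.80% and 11.2%. Over all genes liver had 15.3% and 12% at these positions.

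**Figure D4:**
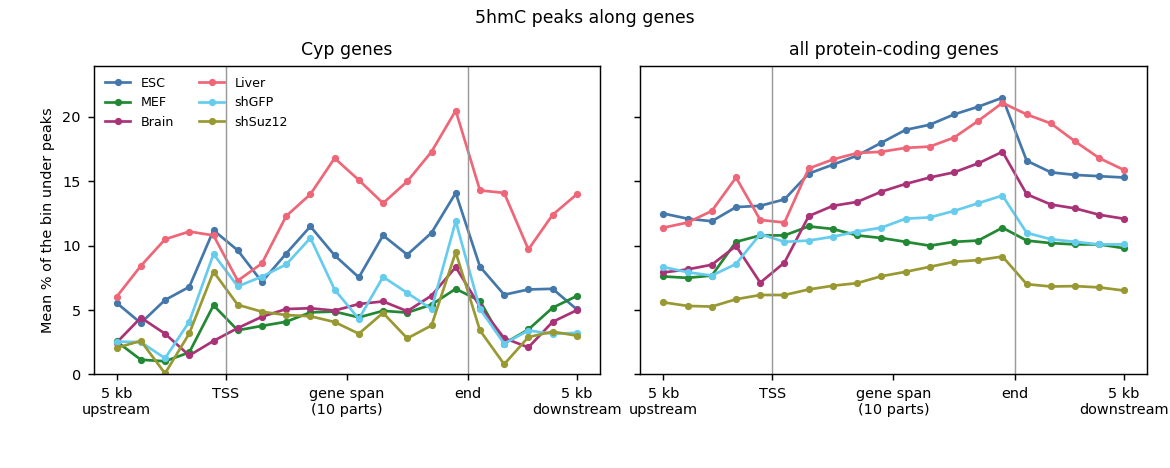
Mean percentage of each bin under peaks (vertical axis) from 5 kb upstream to 5 kb downstream, with the gene span in 10 equal parts, for the 98 Cyp genes and for all protein-coding genes; lines are the 6 libraries. In the Cyp genes liver lies highest over most of the span and reaches 20.5% in its last part, and brain and MEFs stay at or under 8.34%.

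Suz12 is a core subunit of the complex that methylates lysine 27 of histone H3, and its knockdown in ESCs was compared with the shGFP control. Peaks of the control took up 91234 bp of Cyp spans and those of shSuz12 63053 bp, and relative to all genes the level was 0.478 and 0.468. The lists differ in their lowest score, and with 80 as the lowest score kept in both the level was 0.497 and 0.376. It was 0.505 and 0.454 with the top 50% of each list, and 0.480 and 0.479 with equal numbers of peaks. The shSuz12 level was thus the lower one in each of these settings, by an amount that followed the threshold. Among members and all genes with at least 90% of sampled 32-mers unique it was the higher one (1.02 in shGFP and 1.06 in shSuz12). Promoter peaks of shGFP were missing in shSuz12 in 3 of 18 members (16.7%, interval 3.58 to 41.4%), against 44.1% of all promoters with a shGFP peak. The 3 were Cyp1a1 (792 to 0 bp), Cyp2a5 (95 to 0 bp) and Cyp2b10 (944 to 0 bp). Within the span, Cyp1a1 went from 1023 to 1195 bp, Cyp2a5 from 790 to 714 bp and Cyp2b10 from 1122 to 0 bp. The shSuz12 peak on Cyp2a5 overlaps the shGFP peak but starts just past the promoter window, so its loss comes from the edge of the window. The share of promoter peaks lost changed with the peaks kept, in settings that were picked with these results known. It was 7 of 12 with a score of at least 80 in both lists (58.3%, against 78.6% of all promoters), 4 of 10 with the top 50% of each list (40.0% against 56.1%) and 3 of 18 with equal numbers of peaks (16.7% against 46.2%), below that of all genes each time. A promoter peak appeared in shSuz12 in 8 of 80 members without one in shGFP (10%, background 8.57%). Span peaks were lost in 11 of 47 members (23.4%, interval 12.3 to 38.0%; background 10.4%) and gained in 5 of 51 (9.80%, interval 3.26 to 21.4%; background 17.0%). The share of spans lost was 71.8% with a score of at least 80 (all genes 46.4%), 31.4% with the top 50% (17.6%) and 23.4% with equal numbers (11.2%). It thus lay above that of all genes in each setting while its size followed the threshold, and no test was made. A span counts as lost only when none of its peaks is left, and Cyp spans held fewer peaks to begin with. In shGFP 105 peaks lay on the 47 Cyp spans and 81068 on the 14173 protein-coding spans with a peak. The shares lost are therefore not like for like and do not show a preferential loss on Cyp genes.

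The largest falls in span bp from shGFP to shSuz12 were in Cyp2f2 (4524 to 1926 bp), Cyp2c44 (4833 to 2561 bp), Cyp2s1 (6889 to 4626 bp), Cyp1b1 (3058 to 978 bp) and Cyp27b1 (2249 to 507 bp). In untransfected ESCs these 5 had 2697, 6391, 5879, 1834 and 3555 bp, so that for Cyp2f2, Cyp2s1 and Cyp1b1 the shGFP value lay above the untransfected one. The largest rises were in Cyp4f13 (0 to 1822 bp), Cyp4f40 (971 to 1772 bp), Cyp20a1 (1134 to 1872 bp), Cyp19a1 (4198 to 4893 bp) and Cyp11a1 (1102 to 1761 bp). In ESCs they had 928, 1896, 4777, 6974 and 2485 bp. Except for Cyp4f13, the shSuz12 value of these rising members stayed below the untransfected one. The shSuz12 peaks on Cyp4f13 scored 120, 38.2 and 44.0. The weaker ones lie under 50, the lowest score in the shGFP list, so peaks of that score could not appear in the control.

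Electron donors and regulators of the P450 enzymes are richer in CpG than the enzymes, with a median of 15.2 and 13.5 CpG per kb of span against 8.07. The 7 electron donors were covered to 56.7% in liver, 34.5% in ESCs, 30.6% in brain, 20.5% in MEFs, 20.3% in shGFP and 15.5% in shSuz12, with liver highest in 5 of 7, where 28.8% of all genes were. Each value was above that of all protein-coding spans in the same library. P450 reductase (Por) itself had 60% in liver, 40.0% in ESCs, 32.3% in brain and 31.7% in MEFs. The 19 regulators of Cyp genes were covered to 32.6% in liver, 14.4% in ESCs, 15.1% in MEFs, 13.1% in brain, 10.4% in shGFP and 6.68% in shSuz12. Those in liver, ESCs, MEFs, shGFP and shSuz12 were above the level of all protein-coding spans and that in brain below it (13.9%). Liver was highest in 12 of 19 (28.8% of all genes), among them the bile acid receptor Nr1h4 (60.2%, with 10.2 to 11.3% in the other cell types), the xenobiotic receptor Nr1i2 (44.7%, others 3.92 to 12.8%) and Ppara (45.4%, others 3.08 to 10.1%). Cebpa, Cebpb and Nr0b2 had no span peak in liver.

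The labels were set against marker genes, with the limit that 5hmC peaks are not expression. Of 8 liver markers, Apob (42.2% in liver, 2.69 to 4.03% in the other cell types) and Tdo2 (16.4%, none elsewhere) were highest in liver, while Alb, Apoa1, Pck1, Serpina1a, Tat and Ttr had no liver peak in the span. Summed over the list, coverage was 17.4% in liver, 7.61% in ESCs, 6.26% in brain and 4.98% in MEFs. The 8 brain markers were covered to 2.95% in liver, 14.9% in ESCs, 10.3% in brain and 15.3% in MEFs. In the same order the 8 fibroblast markers had 30.2%, 32.3%, 16.6% and 44.3%, and the 8 ESC markers 4.58%, 27.3%, 10.6% and 9.27%. Of the ESC markers, Pou5f1, Sox2 and Zfp42 had no ESC peak, and of the brain markers Gad1 had no brain peak. The sums rest largely on long genes: Apob gave 16544 of the 19687 bp of the liver list in liver and Esrrb 51732 of the 58035 bp of the ESC list in ESCs. By gene, liver markers were highest in ESCs in 3 cases, in liver in 2 and in MEFs in 2. Brain markers were highest in ESCs in 4, in brain in 2 and in MEFs in 2. Fibroblast markers were highest in MEFs in 5, in ESCs in 1 and in liver in 1. ESC markers were highest in ESCs in 4, in brain in 2 and in MEFs in 1. Of all genes, 23.7% were highest in ESCs, 28.8% in liver, 11.2% in MEFs and 12.8% in brain. Coverage by peaks thus did not follow the labels of liver and brain gene by gene. Whether other cells contribute to the liver values was not tested.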

How the data were processed

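GLIB-Seq peaks of 6 libraries, 1 per condition, were taken as the authors deposited them. Per the submitters' processing notes, base calls came from CASAVA 1.8, reads were aligned to mm9 with Bowtie 0.12.7, and peaks were called with MACS 1.4.1. The deposited score of each peak was taken as MACS's −10 log10 of its p-value; the threshold and control are not stated. Mitochondrial peaks were left out (1 in each of ESCs, MEFs, brain and liver, 3 in each of shGFP and shSuz12). Spans and TSSs were from GENCODE M1. A gene was counted as peaked if at least 1 bp of its span or of the 2001 bp window around its TSS was under a peak. Uniqueness was the share of 32-mers found a single time in mm9 on both strands, sampled every 200 bp for all genes (22353 had a sampled 32-mer and 14 had none). Backgrounds are shares of all protein-coding genes, Cyp genes included. Intervals are exact Clopper-Pearson 95%. Alternatives were a common score, the top 50% of each list, equal numbers of peaks, other windows, peak midpoints, autosomes, and genes of high uniqueness.

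Members and lists were chosen with earlier results of these data known. Named genes were those of 6 roles (bile acid and cholesterol, drug and xenobiotic, fatty acid, steroid hormone, retinoic acid, vitamin D), the 8 members with the highest and the 8 with the lowest liver percentage minus the highest other cell type, the 5 with the most promoter bp under liver peaks, and the 5 with the largest fall and rise from shGFP to shSuz12. Other members named in clusters or beside small counts were chosen after their values were seen, as were the peaks whose sequences are shown. Lists of electron donors, Cyp regulators, conjugating enzymes (Ugt, Gst, Sult) and markers of liver, brain, fibroblasts, ESCs and the other cells of liver (Kupffer, endothelial, stellate, cholangiocyte) were taken by symbol. The counting was tested on simulated data and against a brute-force count. Python 3.11.15, numpy 2.4.6, pandas 2.3.3, scipy 1.17.1, matplotlib 3.10.9, pysam 0.24.0, samtools 1.23.1 and gcc 11.4.0 were used.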

Additional observations from a re-analysis of the deposited data

How the results depend on the processing

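Of 176 values under alternative settings, 135 stayed within their limit, 35 moved past it and 6 changed side of 1. For shares the limit was the exact 95% interval of the reported share, wide for small counts, and for coverage ratios and counts of high members 1.5 times. No paired analysis was possible because there is 1 library per condition. With 80 as the lowest score kept in all libraries, promoters with a peak fell to 4.08% in MEFs (all genes 12%), 0 in brain (5.45%) and 5.10% in shSuz12 (5.07%), promoters peaked in 1 cell type alone to 0 in MEFs (1.78%) and 0 in brain (0.402%), and spans with a peak to 16.3% in MEFs (38.7%), 10.2% in brain (32.9%) and 12.2% in shSuz12 (30.4%). The shares of all genes fell too, since these lists hold many peaks under 80. The brain coverage ratio fell to 0.129, and MEF-high members rose to 1 (1.02%, all genes 2.02%). In shSuz12 promoters lost rose to 58.3% (all genes 78.6%) and spans lost to 71.8% (46.4%). Promoters gained were at 0 (all genes 1.25%) and spans gained at 1.69% (4.21%). With the top 50% of each list, promoters with a peak were 15.3% in ESCs (all genes 21.1%), 0 in brain (11.6%), 13.3% in liver (18.4%) and 10.2% in shGFP (17.6%), promoters in brain alone 0 (2%), and spans with a peak 32.7% in ESCs (56.4%), 17.3% in MEFs (46.6%), 28.6% in liver (46.2%), 35.7% in shGFP (50.7%) and 31.6% in shSuz12 (50.9%), as fewer peaks were counted for all genes. MEF-high members were 3 (3.06%, all genes 4.44%) and liver-high members 14 (14.3%, all genes 9.68%). Equal numbers of peaks gave 0 promoters in brain alone (2.24%). A TSS ± 2 kb window gave 15.3% of promoters in brain (32.3%), and peak midpoints 14.3% in liver (14.9%); the cause was not tested. The settings on losses and gains in shSuz12, on high members, on autosomes and on uniqueness were chosen after seeing the data.

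Members with at least 90% unique 32-mers, set against all genes, gave coverage ratios of 1.26 in ESCs, 0.743 in MEFs, 0.567 in brain, 1.30 in liver, 1.38 in shGFP and 1.43 in shSuz12. With the same limit for all genes they were 0.930, 0.555, 0.412, 0.969, 1.02 and 1.06 in that order. Liver was above ESCs, MEFs and brain in both, and below shGFP and shSuz12 in both. Its lead over ESCs was small in both (1.30 against 1.26, and 1.04 times under the same limit). Whether uniqueness causes the deficit was not tested.

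Scores are not comparable between lists of unknown depth. Without replicates, no difference between libraries can be set against variation between animals or cultures. Peaks carry no strand or cell of origin, and the series' expression samples were not analysed.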

Other observations

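Conjugating enzymes, which act after the P450 enzymes on many foreign compounds, also differed between cell types. The 20 Ugt genes were covered to 9.66% in liver, 0.911% in ESCs, 0.365% in MEFs, 0.884% in brain, 0.931% in shGFP and 0.228% in shSuz12, and 13 were liver-high (8.46% of all genes were); several share exons at the Ugt1a locus, so these are not 13 separate regions. The 22 Gst genes were covered to 26.2% in liver, 18.2% in ESCs, 12.2% in MEFs, 12% in brain, 10.7% in shGFP and 6.48% in shSuz12, with 12 highest in liver (28.8% of all genes) and 4 liver-high (8.46%). The 17 Sult genes had lower coverage in liver than in the other cell types when summed, with 2.21% in liver, 5.71% in ESCs, 2.47% in MEFs, 2.57% in brain, 2.96% in shGFP and 2% in shSuz12, while by gene 2 were liver-high (Sult1a1 and Sult1c2; 8.46% of all genes), 1 was ESC-high (9.06% of all genes), and 9 had no span peak in any of the 6 libraries (21.4% of all genes had none).

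Markers of other liver cells were covered in liver to 1.4% (Kupffer, 3 genes found), 17.1% (endothelial, 3 genes), 0 (stellate, 2 genes) and 5.16% (cholangiocyte, 2 genes), against 1.4%, 19.2%, 22.7% and 27.4% in ESCs. Chromosome 8 was covered above the level of all genes in ESCs (2.14 times), shGFP (2.1 times) and shSuz12 (2.13 times) and less so in MEFs, brain and liver (1.23, 1.24 and 1.22 times); it carries Cyp4f18 and Cyp4v3. Chromosome X held 22 peaks in brain, 104 in liver, 328 in ESCs, 757 in MEFs, 351 in shGFP and 454 in shSuz12, and the cause was not tested.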
